A study of Danio rerio with 12 samples.

Results

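The type IV collagen genes measured in the zebrafish brain are col4a1, col4a2, col4a4, col4a5 and col4a6. They were taken by symbol, ignoring case, and each of the 5 symbols matched a single row among the 32105 genes of the count table. All 5 passed the expression filter of more than 0.5 CPM (counts scaled to a common library total) in at least 4 libraries. The gene col4a3, the genomic partner of col4a4, has a row but did not pass that filter, and it is described only beside its partner.

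Type IV collagen is the collagen of basement membranes, the thin sheets of matrix under epithelia and around blood vessels, where it forms a network rather than fibrils. Its alpha chains assemble as trimers, and in mammals the chains of col4a1 and col4a2 make the network found in nearly all basement membranes, while the remaining chains have narrower distributions. In mammals the genes lie in head-to-head pairs that share a promoter region and are transcribed in opposite directions. In brain, type IV collagen is best known from the vascular basement membrane and from the membranes of the meninges and choroid plexus. The miR-29 family is known in mammals to repress the messages of many collagens, those of type IV included.

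All 12 libraries came from the brains of male zebrafish aged 6 months: 4 wild type, 4 of the strain actb1::miR-29sponge and 4 of the strain kif5a::miR-29sponge. A sponge is a transgene whose transcript carries binding sites for a microRNA and competes with its natural targets, and the strain names put it under sequence named for actb1, a cytoplasmic actin gene, or kif5a, a kinesin gene of neurons. The number of founders, the number of animals per library and the sites of insertion are not given in the sources used here. The groups are called wild type, actb1 sponge and kif5a sponge below, and they address whether the collagen messages differ between these strains. Whether miR-29 was sequestered, and in which cells, was not tested.

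Library totals ran from 20884576 to 33573243 counts. Neuron markers were present in every library, with ELAVL4 at a mean of 410.0 CPM. Several libraries stood apart. Summed photoreceptor markers reached 231 to 398 CPM in actb1 sponge 1 to 3 and in kif5a sponge 2 and 3, against 15.0 to 40.3 CPM in the other 7 libraries. Summed skin markers reached 1138 CPM in kif5a sponge 2 and at most 78.0 CPM elsewhere. Mitochondrial genes took 2.24% of the counts in actb1 sponge 3 and 9.37% to 13.97% in the other 11. The part of these features in the results below was not tested. In bulk tissue, fewer cells of a type and less RNA per cell cannot be told apart.

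No type IV collagen gene differed between groups by edgeR, whose quasi-likelihood p-values were adjusted over all genes by the Benjamini-Hochberg method. The count was 0 of 5 for actb1 sponge against wild type (0.738% of all 19645 genes tested were called), 0 of 5 for kif5a sponge against wild type (0.534%) and 0 of 5 for kif5a sponge against actb1 sponge (1.18%). It was also 0 of 5 for the mean of both sponge lines against wild type (0.621%). DESeq2 called 0 of 5 in each comparison too, where it called 4.75%, 2.22%, 4.84% and 3.37% of all genes in the same order. limma also called 0 of 5 in each, against 0.575%, 0.524%, 1.24% and 0.453% of all genes. At an unadjusted p under 0.05 each of the 3 tools picked 1 gene, col4a4, in kif5a sponge against wild type and 1, again col4a4, in kif5a sponge against actb1 sponge, and 0 in the other 2 comparisons. The shares of all genes at that unadjusted threshold were, in the same order of comparisons, 16.7%, 11.3%, 16.2% and 13.4% in edgeR. In DESeq2 they were 18.3%, 12.7%, 17.7% and 14.5%, and in limma 15.8%, 9.8%, 16.3% and 11.7%. Beside these shares, 1 of 5 does not set the genes apart as a group. For no gene did the libraries of 1 group lie wholly above or below those of another (0 of 5), whereas 9.33%, 9.25% and 10.4% of all genes tested did so in the first 3 comparisons.

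col4a1, which encodes an alpha chain of the widely distributed network (ENSDARG00000055009), stood at 15.8, 22.7, 18.6 and 23.6 CPM in wild type 1 to 4. The actb1 sponge libraries held 21.5, 17.6, 37.0 and 13.8 CPM and the kif5a sponge libraries 19.2, 16.8, 14.8 and 21.9 CPM. Thus actb1 sponge held both the highest and the lowest library, and the other 2 groups overlapped. Means were 20.2 ± 3.67, 22.5 ± 10.2 and 18.1 ± 3.06 CPM (SD, n = 4 each). The log2 difference from wild type in edgeR was 0.16 (SE 0.26, 95% interval -0.41 to 0.72, adjusted p = 0.786) in actb1 sponge. In kif5a sponge it was -0.15 (SE 0.26, edgeR adjusted p = 0.898). These intervals leave room for differences of either sign.

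col4a2 (ENSDARG00000104110), whose chain joins that of col4a1, was the most even of the genes in wild type, at 14.2, 15.5, 16.2 and 16.04 CPM, a coefficient of variation of 6.00%. The actb1 sponge libraries held 17.6, 15.5, 35.5 and 9.04 CPM, and the kif5a sponge libraries 17.0, 17.0, 15.97 and 14.9 CPM. Wild type and kif5a sponge were nearly level, and actb1 sponge again had the extremes at both ends. Means were 15.5 ± 0.928, 19.4 ± 11.3 and 16.2 ± 1.01 CPM (SD, n = 4 each). The log2 difference from wild type was 0.33 (SE 0.30, 95% interval -0.32 to 0.98, edgeR adjusted p = 0.596) in actb1 sponge. It was 0.07 (SE 0.30, edgeR adjusted p = 0.968) in kif5a sponge.

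col4a5 (ENSDARG00000052063), whose human orthologue is mutated in Alport syndrome, stood at 11.1, 11.2, 6.59 and 8.33 CPM in wild type. In actb1 sponge it was 9.01, 10.15, 27.0 and 4.195 CPM, and in kif5a sponge 12.3, 12.7, 10.4 and 6.94 CPM. All 3 groups overlapped, and actb1 sponge 3 lay above every other library. Means were 9.30 ± 2.25, 12.6 ± 9.93 and 10.6 ± 2.63 CPM (SD, n = 4 each). The log2 difference from wild type was 0.44 (SE 0.44, 95% interval -0.50 to 1.38, edgeR adjusted p = 0.630) in actb1 sponge and 0.19 (SE 0.44, edgeR adjusted p = 0.932) in kif5a sponge.

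col4a6 (ENSDARG00000052061), the partner of col4a5, stood at 8.27, 7.58, 4.11 and 6.62 CPM in wild type. In actb1 sponge it was 9.24, 8.91, 20.55 and 2.945 CPM, and in kif5a sponge 9.465, 8.47, 8.55 and 5.885 CPM. The pattern over libraries was close to that of col4a5, low in wild type 3, actb1 sponge 4 and kif5a sponge 4. Means were 6.65 ± 1.82, 10.4 ± 7.35 and 8.09 ± 1.54 CPM (SD, n = 4 each). Its log2 difference from wild type in actb1 sponge, 0.65 (SE 0.43, 95% interval -0.28 to 1.58, edgeR adjusted p = 0.459), exceeded that of the other 4 genes in that comparison without passing the test. In kif5a sponge it was 0.28 (SE 0.43, edgeR adjusted p = 0.882).

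col4a4 (ENSDARG00000002831), whose chain in mammals is part of the network of the kidney filter, was scarce. Its counts were 35, 13, 6 and 7 in wild type, 18, 17, 31 and 10 in actb1 sponge, and 20, 51, 45 and 68 in kif5a sponge. As CPM these were 1.30, 0.440, 0.229 and 0.331 in wild type, 0.598, 0.656, 0.865 and 0.403 in actb1 sponge, and 0.646, 1.762, 1.765 and 2.12 in kif5a sponge. In kif5a sponge 2, 3 and 4 the gene stood above every other library, whereas kif5a sponge 1 lay below wild type 1. The 8 libraries over the filter included 4 outside the kif5a sponge group, so the gene would have been tested without it.

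The mean level of col4a4 was 1.57 ± 0.640 CPM in kif5a sponge, 0.576 ± 0.493 in wild type and 0.631 ± 0.190 in actb1 sponge (SD, n = 4 each). The fold against wild type was 2.70 (95% interval 1.23 to 5.91, log2 1.43, SE 0.52). That difference had an unadjusted p of 0.0171 and an adjusted p of 0.325 in edgeR. Against actb1 sponge the log2 difference was 1.30 (SE 0.51, edgeR adjusted p = 0.239). Neither passed the test over all genes. With each library left out in turn, the kif5a sponge log2 difference from wild type ranged from 1.17 to 2.22. The lowest was without wild type 3 (edgeR adjusted p = 0.402) and the highest without wild type 1 (edgeR adjusted p = 0.082). Summed skin markers stood at 45.2, 1138, 40.8 and 48.4 CPM in kif5a sponge 1 to 4, and their part in the level of col4a4 was not tested.

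**Figure D1:**
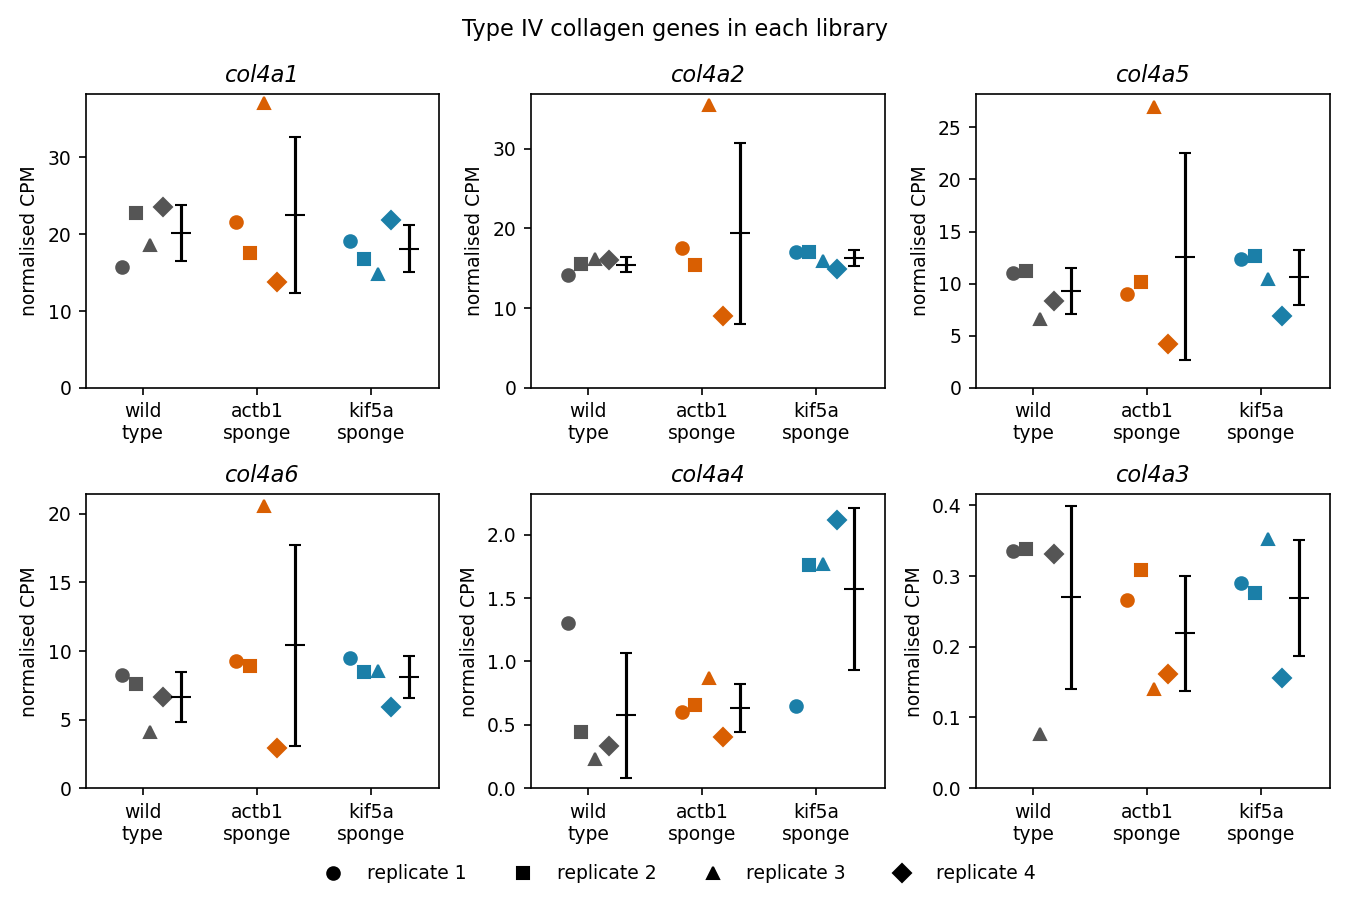
Normalised CPM of each type IV collagen gene and of col4a3 in the 12 libraries, with colour for group and symbol for replicate; bars give the mean and SD of 4 libraries. The library actb1 sponge 3 is highest for col4a1, col4a2, col4a5 and col4a6 (37.0, 35.5, 27.0 and 20.55 CPM), and kif5a sponge 2 to 4 are highest for col4a4.

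The direct contrast of the sponge lines gave negative log2 differences for 4 of the 5 genes, kif5a sponge minus actb1 sponge. They were -0.31 (SE 0.26) for col4a1, -0.26 (SE 0.30) for col4a2, -0.25 (SE 0.43) for col4a5 and -0.37 (SE 0.43) for col4a6, with edgeR adjusted p from 0.582 to 0.805. Without actb1 sponge 3 all 4 of these signs turned, to 0.0354 for col4a1, 0.21 for col4a2, 0.44 for col4a5 and 0.20 for col4a6. Leaving out actb1 sponge 3 moved the actb1 sponge difference from wild type to -0.18 for col4a1, -0.13 for col4a2, -0.24 for col4a5 and 0.10 for col4a6. The sign thus turned for col4a1, col4a2 and col4a5, and for col4a4 too (-0.05 without that library). Leaving out actb1 sponge 4 gave 0.33, 0.57, 0.73 and 0.96 in the same order, with an edgeR adjusted p of 0.16 for col4a6.

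Over the 5 genes, 5 log2 differences were positive in actb1 sponge against wild type and 4 in kif5a sponge against wild type. Their median was 0.33 in the first and 0.19 in the second, against -0.03 and -0.01 over all genes tested. In actb1 sponge against wild type, meninges and fibroblast markers without collagens had a median of 0.36. Of these, 11 of 14 were positive and 0 were called in edgeR (0.738% of all genes). At an unadjusted p under 0.05 in edgeR, 5 were higher and 1 lower, against 7.8% and 8.85% of all genes. Their summed level was 371.9 to 387.8 CPM in actb1 sponge and 316.2 to 360.7 CPM in wild type, without overlap. Of all single genes tested, 9.33% had no overlap between these groups. In kif5a sponge the summed level ran from 315.4 to 422.2 CPM and overlapped both. Choroid plexus and ependymal markers had a median of 0.41 in actb1 sponge against wild type, with 8 of 10 positive. The other marker lists had medians there of 3.9 (photoreceptor), 0.57 (skeletal muscle), 0.50 (skin), 0.21 (neuron) and 0.16 (lens). Medians were 0.04 for endothelial, 0.03 for mural, -0.01 for astroglia, -0.01 for red blood cell and -0.185 for microglia and macrophage markers. The part of these lists in the collagen differences was not tested. These comparisons share the wild type libraries. The median for kif5a sponge against actb1 sponge was -0.26, against 0.00 over all genes. Marker medians there were 2.22 for skin, -1.605 for skeletal muscle and -0.68 for microglia and macrophages. In the other marker lists they ran from -0.34 to 0.08. Summed microglia and macrophage markers ran from 966.9 to 1193 CPM in kif5a sponge and 1251 to 2684 CPM in actb1 sponge, without overlap. Wild type, at 989.0 to 2381 CPM, overlapped both. Of all single genes tested, 10.4% had no overlap between the sponge groups. The part of these lists was not tested.

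**Figure D2:**
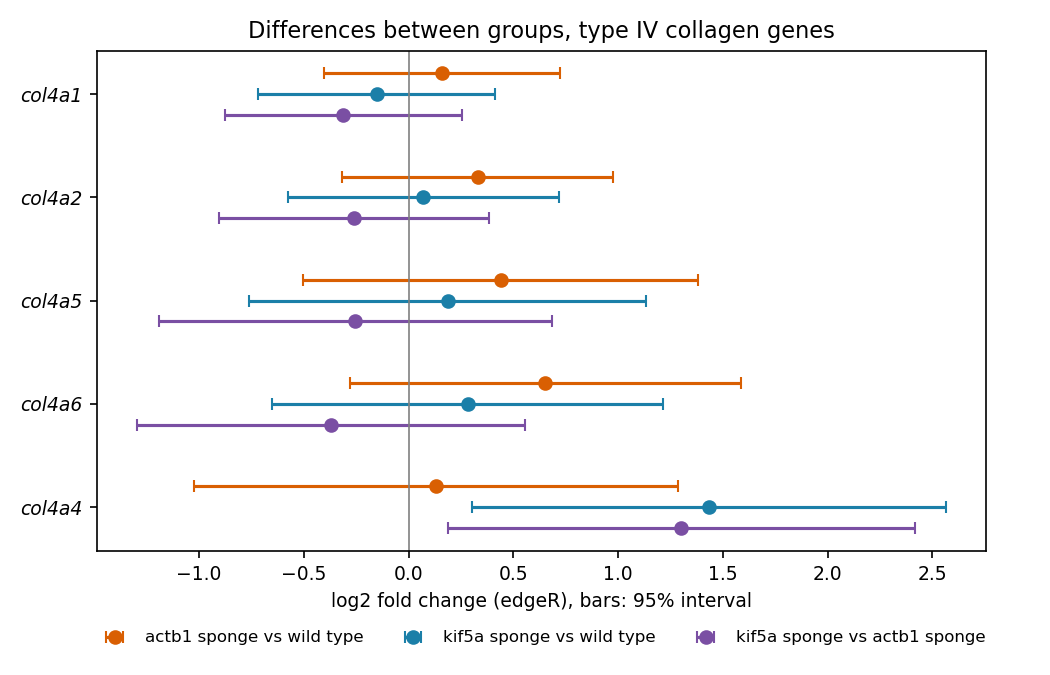
Log2 difference between groups in edgeR for each type IV collagen gene, with bars for the 95% interval and 0 marked by a line. All intervals span 0 apart from those of col4a4 in the 2 comparisons of kif5a sponge, 0.30 to 2.56 and 0.19 to 2.42, which did not pass adjustment over all genes.

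Levels per length ranked the genes in the same order in most libraries. Mean RPKM over the 12 libraries, computed from the counts and the gene lengths implied by the deposited RPKM, was 2.95 ± 1.08 for col4a2, 2.15 ± 0.655 for col4a1, 1.67 ± 0.876 for col4a5 and 1.03 ± 0.534 for col4a6 (SD, n = 12). col4a4 followed at 0.0868 and col4a3 at 0.0264 RPKM. col4a2 exceeded col4a1 in 12 of 12 libraries, by a median factor of 1.43 (range 1.07 to 1.76). col4a5 exceeded col4a6 in 12 of 12 (median 1.65, range 1.23 to 2.01), and col4a6 exceeded col4a4 in 12 of 12 (median 18.5). Neighbours col4a1 and col4a5 did not separate, since col4a1 was higher in 8 of 12 libraries with ratios from 0.909 to 2.26. The implied lengths differ, 9411 bases for col4a1 and 5767 for col4a2, so the order rests on the annotation's gene models.

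The genomic arrangement was read from the RefSeq gene table of assembly GRCz12tu, another build than that of the counts, so no coordinates are given. The pairs col4a1 and col4a2, col4a5 and col4a6, and col4a4 and col4a3 lie on chromosomes 9, 7 and 15, with 0 protein-coding genes starting between the members of each pair. That table gives no strand, so the head-to-head orientation known in mammals was not checked in zebrafish. The library kit does not mark strand, so reads from overlapping opposite-strand transcripts cannot be assigned.

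The per-length ratio of col4a1 to col4a2 in each library was 0.682, 0.899, 0.705 and 0.902 in wild type. It was 0.751, 0.697, 0.639 and 0.936 in actb1 sponge and 0.690, 0.603, 0.568 and 0.898 in kif5a sponge. The 3 groups overlapped throughout. The log2 ratio had an SD of 0.25 over the libraries, above its mean counting error of 0.09 but below the SD of log2 CPM of either gene (0.38 and 0.43). Within groups that order held in actb1 sponge, where the ratio had an SD of 0.24 and the genes 0.61 and 0.81. In wild type the SD was 0.22 for the ratio, 0.27 for col4a1 and 0.09 for col4a2, and in kif5a sponge it was 0.29, 0.24 and 0.09. The ratio therefore varied more than col4a2 in the latter 2 groups.

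The ratio of col4a5 to col4a6 was 1.68, 1.86, 2.01 and 1.58 in wild type, 1.23, 1.43, 1.65 and 1.79 in actb1 sponge and 1.64, 1.88, 1.53 and 1.48 in kif5a sponge. Its log2 SD, 0.20 against a mean counting error of 0.14, was below that of col4a5 (0.65) and col4a6 (0.69) alone. In wild type the SD was 0.16 for the ratio and 0.37 and 0.45 for the genes, in actb1 sponge 0.24, 1.102 and 1.15, and in kif5a sponge 0.15, 0.40 and 0.30. Levels of these genes thus varied over libraries more than their ratio did in each group.

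The ratio of col4a4 to col4a3 was much less even, from 0.898 to 12.2. col4a3 (ENSDARG00000003395) had only 2 to 10 counts per library, and the mean counting error of the log2 ratio, 0.68, was large beside its SD of 1.06. In kif5a sponge the 4 ratios were 1.997, 5.73, 4.49 and 12.2, in actb1 sponge 2.02, 1.91, 5.57 and 2.25, and in wild type 3.49, 1.17, 2.70 and 0.898.

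No difference of a ratio between groups passed a two-sided exact permutation test of the log2 ratios. Across 12 tests the lowest exact p was 0.114, for col4a4 to col4a3 in kif5a sponge against wild type (log2 difference 1.497, n = 4 each), with an adjusted p of 0.441. For col4a1 to col4a2 the log2 differences were -0.08 in actb1 sponge and -0.22 in kif5a sponge against wild type (exact p = 0.686 and 0.257). For col4a5 to col4a6 they were -0.24 and -0.13 (exact p = 0.171 and 0.257). With 4 libraries a group the smallest p this test can give is 0.0286.

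**Figure D3:**
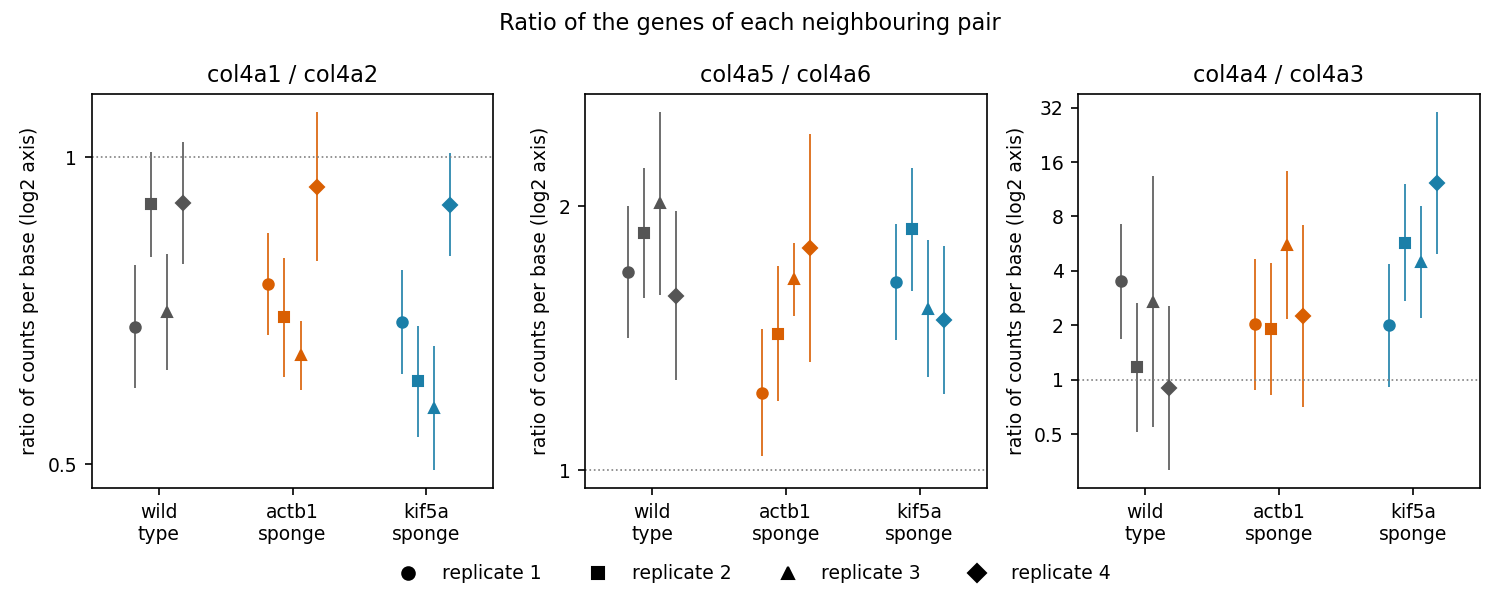
Per-length ratio within each neighbouring pair in every library on a log2 axis, by group. The ratios of col4a1 to col4a2 run from 0.568 to 0.936 and those of col4a5 to col4a6 from 1.23 to 2.01, with all groups overlapping, while those of col4a4 to col4a3 run from 0.898 to 12.2.

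Levels of the pair members were also compared over the 12 libraries, as log2 CPM, in a family of 15 pairs of genes including col4a3. col4a5 and col4a6 followed each other, with Pearson r = 0.96 (permutation p = 2e-05, adjusted 0.0003) and Spearman rho = 0.75 (permutation p = 0.00681, adjusted 0.102). Without the 2 libraries farthest from the median, actb1 sponge 3 and 4, r was 0.82 (permutation p = 0.00297), and with each group centred on its mean it was 0.97. The relation therefore did not rest on the extreme libraries alone.

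For col4a1 and col4a2, Pearson r was 0.83 (permutation p = 0.00276, adjusted 0.0124) and Spearman rho 0.48 (permutation p = 0.115, adjusted 0.430). Without the same 2 libraries r was 0.16 (permutation p = 0.658), so this relation rests on them. The same held between pairs, since r of col4a2 with col4a5 was 0.88 (permutation p = 0.00319, adjusted 0.0124; rho 0.51, p = 0.0929, adjusted 0.430) and 0.15 without them. For col4a2 with col4a6 it was 0.87 (permutation p = 0.00331, adjusted 0.0124; rho 0.64, p = 0.0292, adjusted 0.219) and 0.22 without them. col4a4 and col4a3 had r = 0.27 (permutation p = 0.403, adjusted 0.601; rho 0.17, p = 0.588, adjusted 0.679), and -0.11 without wild type 3 and actb1 sponge 3.

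**Figure D4:**
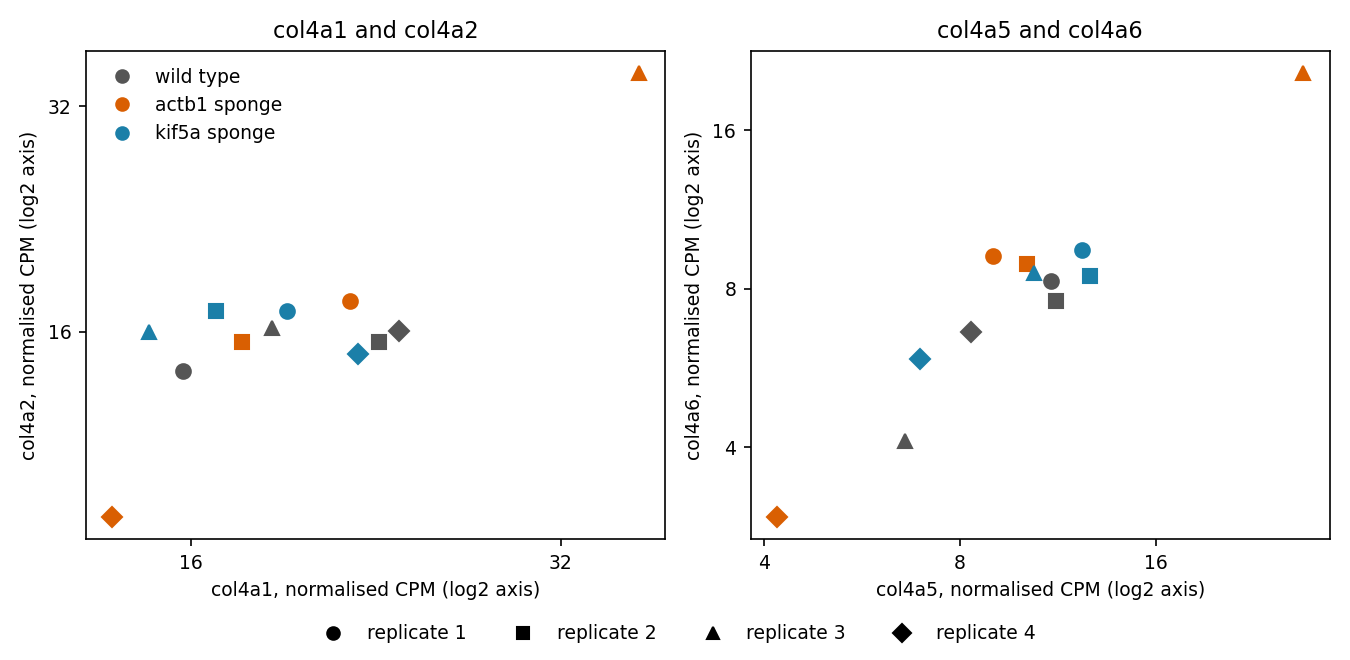
Normalised CPM of col4a2 against col4a1 and of col4a6 against col4a5 on log2 axes, 1 point per library, coloured by group. The pair col4a4 and col4a3 (r = 0.27) is not drawn. For col4a5 and col4a6 (r = 0.96) the points follow a line over the whole range, while for col4a1 and col4a2 (r = 0.83) the spread lies between actb1 sponge 4 at the bottom and actb1 sponge 3 at the top.

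The extremes of 4 of the 5 genes lay in the same libraries. col4a1, col4a2, col4a5 and col4a6 were each highest in actb1 sponge 3 and lowest in actb1 sponge 4, by factors of 2.68, 3.93, 6.43 and 6.98 between them. Of all 19645 genes tested, 22.9% were highest in the first of these libraries, 17.7% lowest in the second and 3.95% both. Against the median of the other 11 libraries, actb1 sponge 3 stood at 1.99 for col4a1, 2.22 for col4a2, 2.66 for col4a5 and 2.49 for col4a6. In actb1 sponge 4 the same ratios were 0.720, 0.563, 0.404 and 0.348.

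Levels of other lists in these libraries are given for comparison. Summed laminins, the other main network of basement membranes, stood at 613 CPM in actb1 sponge 3 and at 268 to 355 CPM in the other 11. Other basement membrane collagens stood at 2.26 times their median in the other libraries, and microglia and macrophage markers at 2.25 times. In actb1 sponge 4 the microglia and macrophage list was at 1.62 times. Its sum there, 1934 CPM, lay below wild type 2 and 4 (2381 and 2307 CPM), and in actb1 sponge 3 it was 2684 CPM. Photoreceptor markers stood at 11.3 and 0.445 times in the 2 libraries, or 398 and 17.9 CPM. That list was also high in actb1 sponge 1 and 2 and kif5a sponge 2 and 3, up to 341 CPM. Wild type 2, at 15.0 CPM, was below actb1 sponge 4. Skeletal muscle markers were at 3.30 and 2.01 times, and in actb1 sponge 4 (64.0 CPM) they lay below wild type 4 (76.6 CPM). Lens markers were at 1.92 and 0.931 times and skin markers at 1.78 and 1.87 times. The choroid plexus and ependymal list summed to 90.4 CPM in actb1 sponge 3 and 35.5 CPM in actb1 sponge 4, its highest and lowest values, or 1.77 and 0.685 times the median of the others. Other lists had their extremes in the same libraries. These were laminins (613.3 and 268.4 CPM, with kif5a sponge 2 at 268.5 CPM), nidogens, perlecan and related proteins (787.6 and 498.0 CPM), and collagen and laminin receptors (402.8 and 262.2 CPM). Endothelial markers were at 1.099 and 0.963 times in those libraries, and mural cell markers at 1.05 and 0.775 times. The mural sum in actb1 sponge 4, 282.8 CPM, was its lowest, against 336.0 to 390.5 CPM in the other 11. Meninges and fibroblast markers without collagens were at 1.08 and 1.03. Neuron markers were at 0.673 and 1.198. Single genes weigh heavily in such sums. col18a1a had a mean of 58.52 CPM in the list of other basement membrane collagens, whose sum had a median of 69.57 CPM. In actb1 sponge against wild type, 3 of the 7 genes tested in that list were positive. ZIC1 had a mean of 148.8 CPM in the meninges and fibroblast list, whose sum had a median of 362.9 CPM. NOTCH3 had a mean of 145.7 CPM in the mural list, whose sum had a median of 363.1 CPM. The part of any of these lists in the collagen levels was not tested.

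**Figure D5:**
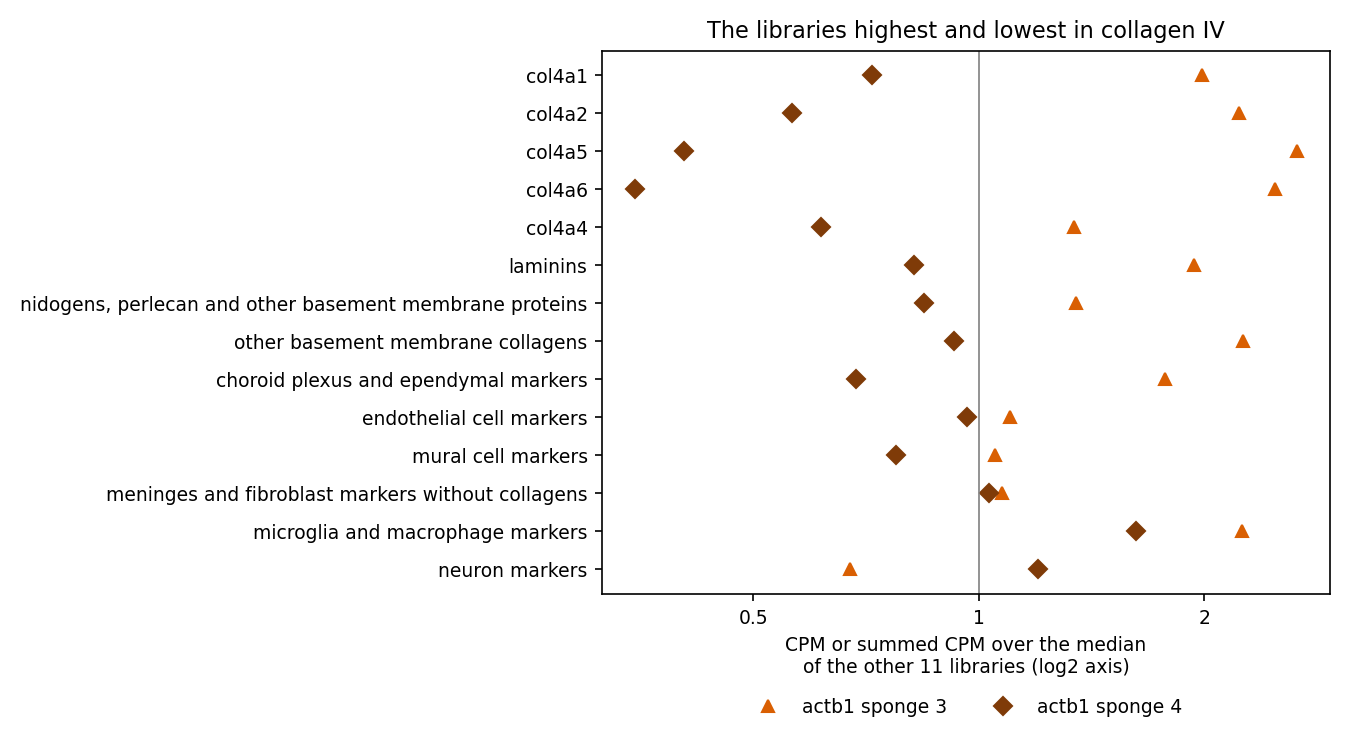
CPM of each type IV collagen gene, or summed CPM of each list, in actb1 sponge 3 and actb1 sponge 4 divided by the median of the other 11 libraries, on a log2 axis with 1 marked by a line. Collagen genes other than col4a4 spread from 0.348 to 2.66. Lists are sums over several genes, so their ratios are not on a like footing with those of single genes. Endothelial and mural sums spread from 0.775 to 1.099. In actb1 sponge 3 laminins stood at 1.94, other basement membrane collagens at 2.26 and microglia and macrophage markers at 2.25. Several lists are not drawn. In that library photoreceptor markers stood at 11.3, skeletal muscle at 3.30, lens at 1.92 and skin at 1.78. The remaining lists not drawn ran from 0.97 (astroglia) to 1.23 (red blood cell).

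Genes whose log2 CPM over the 12 libraries was most like that of a pair were ranked by Pearson r among 18486 genes with a symbol, and the values are a description. For the mean of col4a1 and col4a2 the first was cald1a (r = 0.97), which encodes the actin-binding protein caldesmon. RNF5 (0.96), B4GALT1 (0.95), DOCK1 (0.94), col27a1b (0.94), a fibrillar collagen, and ELMO3 (0.93) followed. Without actb1 sponge 3, an alternative chosen after seeing the data, the first were SLC2A1 (ENSDARG00000007412), a glucose transporter, at r = 0.95, ARHGAP42 at 0.94 and tinagl1, a matrix protein of basement membranes, at 0.94. Over all 12 libraries ARHGAP42 had r = 0.00, so the ranking depends on that library.

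For col4a5 and col4a6 the most alike were slc22a5, a carnitine transporter, at r = 0.94, hsd3b1 at 0.93 and clic6 at 0.93, then ADAMTS3 (0.93), si:dkeyp-69c1.9 (0.92) and THBS3 (0.92). clic6, a gene of the choroid plexus list, stood at 25.1 CPM in actb1 sponge 3 and 1.01 CPM in actb1 sponge 4, against 3.70 to 10.1 CPM elsewhere. Without actb1 sponge 3 the order began with si:dkey-12l12.1 (0.98), oatx (0.96), GSTM3 (0.95) and DNAH5 (0.95), a dynein of motile cilia. For col4a4 alone the most alike were slf1 (0.90), IMMP1L (0.88), PTH1R (0.83), ABCF2 (0.83), fastkd2 (0.83) and PMCH (0.82).

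Basement membrane partners, assembly factors and receptors were counted in 6 lists. Of all genes tested, edgeR called 0.738% in actb1 sponge and 0.534% in kif5a sponge against wild type. It called 1.18% in kif5a sponge against actb1 sponge and 0.621% for both lines against wild type. Of the lists, 0 genes passed the test in any comparison, which beside these shares does not set them apart. Tested were 12 laminins, 18 nidogens, perlecan and related proteins and 7 other basement membrane collagens. The other lists held 26 assembly and modification genes, 19 receptors and 12 gelatinases and inhibitors tested. At an unadjusted p under 0.05 in actb1 sponge against wild type, the numbers higher in these lists, in that order, were 2, 4, 1, 3, 3 and 1, and the numbers lower were 0, 1, 0, 0, 1 and 1. Of all genes tested, 7.8% were higher and 8.85% lower at that threshold. In kif5a sponge against wild type they were 0, 1, 1, 3, 2 and 0 higher and 1, 0, 0, 1, 1 and 1 lower, against 4.54% and 6.78% of all genes. In kif5a sponge against actb1 sponge they were 1, 1, 2, 0, 3 and 0 higher and 3, 4, 0, 2, 2 and 3 lower. There 16.2% of all genes passed that threshold in either direction. DESeq2 called 2 nidogen-list genes and 2 assembly genes in actb1 sponge against wild type (4.75% of all genes) and 0 of any list in kif5a sponge against wild type (2.22%). It called 0 laminins and 1 gene of each other list in kif5a sponge against actb1 sponge (4.84% of all genes). For both lines against wild type it called 1 assembly gene (3.37%). limma called 0 throughout, against 0.575%, 0.524%, 1.24% and 0.453% of all genes in the same order of comparisons. The median log2 difference in actb1 sponge was 0.13 for laminins, 0.06 for the nidogen list, -0.26 for other basement membrane collagens, 0.16 for assembly genes, 0.01 for receptors and 0.11 for gelatinases, against -0.03 over all genes.

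The lowest adjusted p among them belonged to P3H3, a collagen prolyl 3-hydroxylase, with a log2 difference of 1.27 (SE 0.27, edgeR adjusted p = 0.058) in actb1 sponge against wild type. The value in kif5a sponge was 0.10 (SE 0.27, edgeR adjusted p = 0.938), and in kif5a sponge against actb1 sponge it was -1.16 (SE 0.27, edgeR adjusted p = 0.0617). SMOC2, a matricellular protein of basement membranes, was at 0.49 (SE 0.12, edgeR adjusted p = 0.0783) in actb1 sponge against wild type and at -0.50 (SE 0.12, edgeR adjusted p = 0.0595) in kif5a sponge against actb1 sponge. The netrin NTN4, which binds laminin, was at -0.78 (SE 0.19, edgeR adjusted p = 0.0838) and the nidogen NID1, which links laminin to type IV collagen, at 1.02 (SE 0.37, edgeR adjusted p = 0.204). None of these passed the threshold of 0.05.

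Of the laminin chains, lama4 stood at 0.54 (SE 0.22, edgeR adjusted p = 0.2499) in actb1 sponge and -0.11 in kif5a sponge against wild type. lamc3 stood at 0.49 and -0.22 and LAMB1 at 0.07 and -0.40. Among other basement membrane collagens col18a1a, the source of endostatin, was at 0.62 in actb1 sponge (SE 0.26, edgeR adjusted p = 0.252), and col17a1b, an epithelial anchoring collagen, at 2.14 in kif5a sponge (SE 0.88, edgeR adjusted p = 0.385). Skin markers were at 1138 CPM in kif5a sponge 2 beside it, and their part was not tested. Of the receptors itga6b, an integrin chain for laminin, was at 0.70 (SE 0.23, edgeR adjusted p = 0.167) in actb1 sponge against wild type. In kif5a sponge against actb1 sponge itga6b was at -0.92 (SE 0.23, edgeR adjusted p = 0.0801). ADGRG6, an adhesion receptor that binds type IV collagen in mammals, was at 0.89 (SE 0.28, edgeR adjusted p = 0.152) in actb1 sponge against wild type. Of these genes 0 passed the edgeR threshold in any comparison. The remaining genes named by the rule, col7a1, P4HA2, CRTAP, itga3a, MMP15, MMP14 and RECK, had edgeR adjusted p from 0.111 upward.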

How the data were processed

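Bulk RNA was sequenced from 12 brain libraries made with the TruSeq RNA Library Preparation Kit, version 2, per the labels' protocols. The submitters' processing notes name STAR 2.4.1d, featureCounts 1.4.6-p4, bcl2fastq 1.8.4 and build GRCz10; the annotation release and the handling of multi-mapping reads are not given in the sources used here. Counts deposited by the authors are whole reads for each gene, the input of every main test. The authors also deposited RPKM. In 6540 genes counted over 500 times in all libraries, the ratio of count to RPKM followed the 12 library totals recycled down the genes (median coefficient of variation 1.48e-05) and not each library's own total (0.179). Gene lengths were therefore recovered from that relation. The RPKM levels printed above were recomputed from normalised counts. The recomputed RPKM given to limma used counts divided by library totals, without that normalisation.

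Groups came from the strain label; replicates are numbered in order of accession, which pairs nothing. Whether a group's libraries are separate animals is not given, so p-values cover only library-to-library spread, possibly technical. Chi-square per degree of freedom between replicates was 9.64 to 265, so none was treated as a duplicate.

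edgeR 4.0.16 (TMM, quasi-likelihood) was fitted in R 4.3.3 to all 12 libraries and 19645 genes with over 0.5 CPM in at least 4 libraries, with Benjamini-Hochberg adjustment and a threshold of 0.05, after a test on simulated data. CPM values are TMM-normalised. Alternatives were DESeq2 1.42.0, limma 3.58.1 on log2(RPKM + 0.1), other scalings and filters, and libraries left out. The added 0.1 is above the mean RPKM of col4a4 (0.0868). The log2 difference of col4a4 in kif5a sponge against wild type was 0.70 in limma on recomputed RPKM and 1.43 in edgeR. Likeness and correlations used log2 CPM with a prior count of 2. The members, the gene lists and the tests were chosen with earlier results of these data known. In lists other than the marker lists, named genes are the 3 of smallest p in any comparison. Genes named from marker lists are among the 4 of highest mean CPM in their list, apart from RSPH4A, named after its values were seen. Names came from the supplied gene table. Sequences are not shown.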

Additional observations from a re-analysis of the deposited data

Results flagged for a closer look

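Among 27 groups of 4 libraries tested for a library far from the others, 2 were picked out, and chance alone picks about 1 in 20 groups. For col4a3 in wild type, replicate 3 stood at 0.0762 CPM, far below the other 3 libraries, and the gap took 0.973 of the group's range. That library held 2 counts of the gene. For the log2 count ratio of col4a4 to col4a3 in actb1 sponge, replicate 3 stood at 2.63, far above the other 3, and the gap took 0.848 of the range. Both values involve col4a3, whose counts lie between 2 and 10 in all libraries.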

How the results depend on the processing

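The count of type IV collagen genes called stayed at 0 in 83 recomputed counts over the 4 comparisons. The exception was col4a2 in kif5a sponge against actb1 sponge, at log2 0.78, without the 5 libraries high in photoreceptor genes. Only actb1 sponge 4 was left in its arm, assumed to vary like the other groups, and kif5a sponge 1 and 4 in theirs. With 1 library in an arm, that fit cannot decide whether the gene differs. In that setting actb1 sponge against wild type gave log2 -0.50, -0.72, -1.10 and -1.12 for col4a1, col4a2, col4a5 and col4a6, kif5a sponge against actb1 sponge gave 0.53, 0.78, 1.15 and 1.34, both lines against wild type gave -0.23, -0.33, -0.52 and -0.46, and kif5a sponge against wild type gave 0.032 for col4a1. The ratio of col4a1 to col4a2 then gave 0.24 for actb1 sponge and 0.0771 for both lines against wild type, and that of col4a5 to col4a6 gave 0.0112 for actb1 sponge against wild type and -0.20 for kif5a sponge against actb1 sponge. With limma on deposited RPKM, col4a2 in kif5a sponge against actb1 sponge was 0.14; with limma on recomputed RPKM, col4a5 there was 0.0419 and col4a1 in both lines -0.0102. The cause of these reversals was not tested. The deposited RPKM did not follow each library's own total, so they are not on a like footing with the counts. col4a4 was not tested under the 2 CPM filter or without the 5 libraries.

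Leaving out each library in turn, actb1 sponge against wild type ranged from -0.18 to 0.33 for col4a1, -0.13 to 0.57 for col4a2, -0.13 to 0.91 for col4a4 and -0.24 to 0.73 for col4a5. The kif5a sponge against actb1 sponge difference ranged from -0.49 to 0.0354, -0.50 to 0.21, -0.54 to 0.44 and -0.68 to 0.20 for col4a1, col4a2, col4a5 and col4a6. For both lines the ranges were -0.16 to 0.0906 for col4a1, -0.0233 to 0.32 for col4a2 and -0.0246 to 0.46 for col4a5. The correlation of col4a1 with col4a2 was 0.16 without the 2 farthest libraries, and that of col4a4 with col4a3 ranged from -0.10 to 0.48 with each library left out.

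Over all genes, DESeq2 called 934, 437, 950 and 663 genes for actb1 sponge against wild type, kif5a sponge against wild type, kif5a sponge against actb1 sponge and both lines, limma on deposited RPKM called 61, 51, 124 and 51, and the fit without the 5 libraries called 661, 15, 1167 and 4. With only the groups compared, actb1 sponge gave 83. With each library left out the counts ranged from 38 to 243, 33 to 150, 93 to 250 and 59 to 172. No paired analysis was possible because the labels give no replicate numbers shared between groups. The low counts of col4a4 and col4a3 limit both.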

Other observations

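The per-length ratio of col4a1 to col4a2 fell into 2 ranges with a gap between them. In 4 libraries (wild type 2 and 4, actb1 sponge 4 and kif5a sponge 4) it was 0.898 to 0.936, and in the other 8 it was 0.568 to 0.751. Each group has libraries in both ranges. RSPH4A, a radial spoke protein of motile cilia in the choroid plexus and ependymal list, was higher in actb1 sponge than in wild type (log2 1.17, SE 0.19, edgeR adjusted p = 0.0136), with 7.10 to 12.6 CPM against 3.88 to 4.46 CPM. The kif5a sponge libraries held 5.38 to 7.88 CPM, also above wild type, but 0 genes of that list were called there. RSPH4A was called for both lines against wild type (log2 0.92, SE 0.17, edgeR adjusted p = 0.0308). PDE6G, a rod phosphodiesterase subunit in the photoreceptor list, had a log2 difference of 3.90 in actb1 sponge against wild type (SE 0.80, edgeR adjusted p = 0.0488). Of the 21 genes of that list tested there, edgeR called 1 (0.738% of all genes), DESeq2 13 (4.75%) and limma 0 (0.575%). PDE6G stood at 47.0, 39.3, 23.1 and 4.84 CPM in actb1 sponge 1 to 4 and at 0.474 to 2.67 CPM in wild type. The summed list in actb1 sponge 4, 17.9 CPM, lay within the wild type range. Both genes were named after their values were seen.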
